A study of Mus musculus with 8 samples.

Results

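Collagen genes encode the chains of the collagens, the triple-helical proteins of the extracellular matrix. In livers of male mice taken 8 h after acetaminophen they were read from every non-control array probe whose gene name was Col, a number, the letter a and a number. That rule gave 92 probes for 44 genes, out of 36666 distinct gene names. By the kind of assembly they form, the 44 comprise 11 fibrillar collagens, 8 basement membrane collagens (types IV, XV and XVIII) and 25 others. A gene was tested when the scanner software called a probe well above background on 4 or more of the 8 arrays, which held for 22 collagens, with 6 fibrillar, 4 basement membrane and 12 other genes.

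Fibrillar collagens, chiefly types I, III and V in liver, are secreted as procollagens, trimmed and crosslinked into the fibrils that accumulate in a scarred liver. Type IV collagen forms the sheet-like network of basement membranes, and type VI forms beaded filaments that join cells to fibrils. In the liver the fibrillar chains come mainly from hepatic stellate cells and portal fibroblasts, whereas type IV chains are also made by endothelial cells, and hepatocytes are a known source of type XVIII, the parent of endostatin.

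The arrays held liver RNA from 4 samples of mice aged 8 weeks, called young here, and 4 aged 80 weeks, called old, all male and all given acetaminophen, which is lethal to hepatocytes once oxidised, 8 h before. Neither dose nor strain is stated in the labels, nor whether the replicates were different mice, and the p-values therefore reflect sample-to-sample spread that may be technical only. Untreated livers were not analysed here, so an age difference at rest and an age-dependent response to the drug cannot be told apart. The 8 hepatocyte markers were all above background enough to be tested, with a summed level of 1766 to 4113 times the 75th percentile intensity on young arrays and 2799 to 4462 on old ones. A bulk sample cannot separate fewer cells of a type from less RNA per cell. The comparison of old with young livers asks which collagens differed with age at this time point.

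Values below are log2 intensity relative to the 75th percentile of the array, so 1 unit is a doubling, and differences are old minus young. Each gene is read through its brightest tested probe, and a level cannot be set against that of another gene, since probes bind with different strength. Each array had between 24537 and 28536 probes well above background. Young replicates 1 and 2 stood apart from the other 6 arrays, at -61.3 and -99.2 on the first principal component against 10.2 to 47.5, so results are also given without them. All old arrays lay in one row of the slide and all young arrays in the other, and the effects of row and age cannot be told apart.

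No collagen gene passed an adjusted p of 0.05 in limma's test, against 0.359% of the 17565 genes tested (0.33% higher and 0.0285% lower in old livers). At an unadjusted p under 0.05 there were 7 of the 22 collagens, 5 higher and 2 lower in old livers, or 31.8% against 14.1% of all tested genes (7.91% higher and 6.14% lower). Beside the 5 genes whose groups were separate, named next, these were Col16a1, higher, and Col8a1, lower. The old and young arrays did not overlap for 5 collagens, or 22.7% against 8.38% of all tested genes. These were Col6a3, Col5a3, Col27a1 and Col14a1, higher in old livers (against 4.62% of all tested genes), and Col4a5, lower (against 3.76%). Col4a5 was above background on 4 young and 0 old arrays. It met the filter only through the young group, yet counts in these shares and in those at an unadjusted p. Among genes above background on all 8 arrays, 3 of 16 collagens did not overlap, beside 8.13% of all such genes. Without young replicates 1 and 2 the groups did not overlap for 8 collagens, beside 21.9% of all tested genes, and those 8 included the same 5. Without young replicate 3 there were 9, beside 13.8% of all tested genes. The difference was positive for 13 of the 22 collagens, or 59.1%, beside 52% of all tested genes, and the median difference was 0.24 beside 0.02 over all genes.

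**Figure D1:**
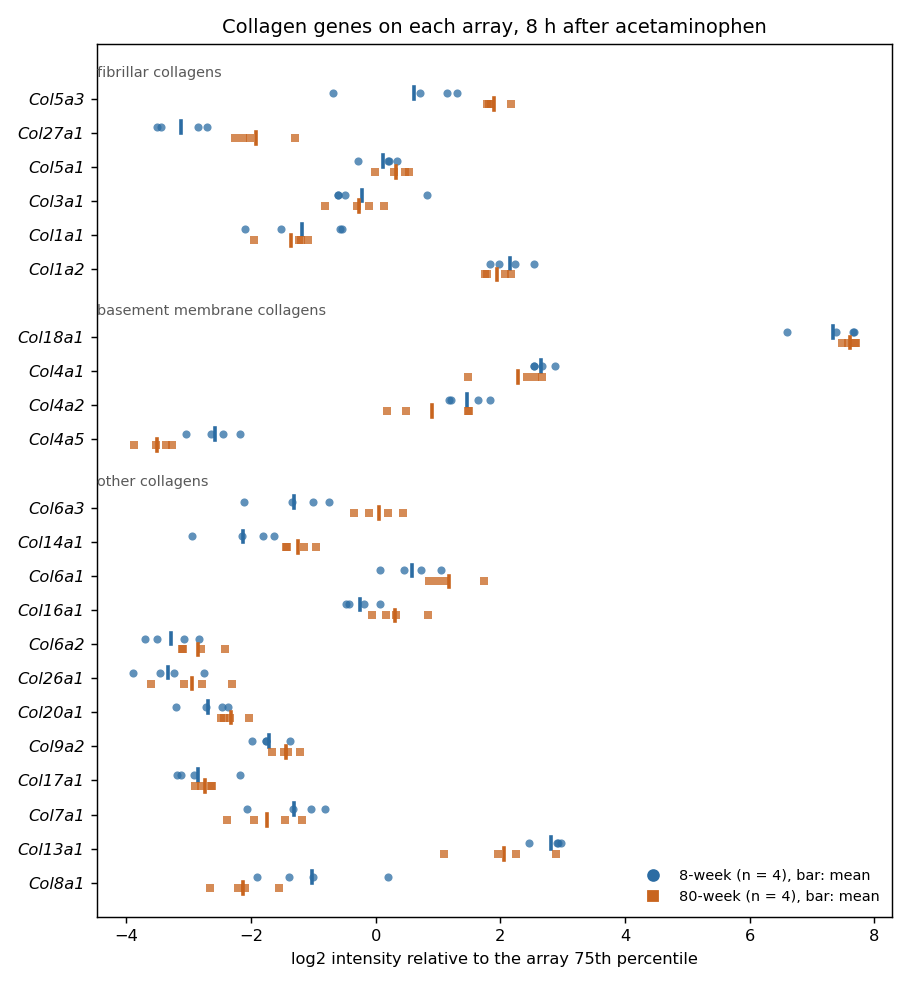
Log2 intensity relative to the array's 75th percentile (x axis) of the 22 tested collagen genes (y axis, by class) on each of 4 young (8-week, circles) and 4 old (80-week, squares) arrays, with bars at the group means. The groups separate for Col5a3, Col27a1, Col4a5, Col6a3 and Col14a1, and the points of Col1a1, Col1a2 and Col3a1 interleave. Col4a5 was above background on 4 young and 0 old arrays.

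The major fibril-forming chains did not separate by age. Col1a2, the alpha 2 chain of type I collagen, read 1.84, 1.98, 2.53 and 2.24 on young replicates 1 to 4 and 2.17, 1.75, 1.79 and 2.07 on the old ones. The groups overlapped, and the difference was -0.20 (SE 0.21, limma adjusted p = 0.665), or -0.44 without young replicates 1 and 2 and -0.076 without young replicate 3. Col1a1, the alpha 1 chain of type I, read -2.09, -0.58, -0.55 and -1.53 on the young arrays and -1.09, -1.95, -1.20 and -1.22 on the old ones. Young replicates 2 and 3 were the highest of the 8 arrays and young replicate 1 the lowest, so the spread within the young group (SD 0.76) exceeded the difference of -0.18, whose 95% interval ran from -1.02 to 0.66. Its sign turned, to between 0.017 and 0.035, without young replicate 2, young replicate 3 or old replicate 2. Col3a1, the homotrimeric chain of type III fibrils, read -0.61, 0.82, -0.49 and -0.60 on the young arrays and -0.30, -0.81, -0.11 and 0.14 on the old ones. Young replicate 2 was by far the highest, and the difference of -0.05 (95% interval -0.85 to 0.75) became 0.28 without young replicates 1 and 2.

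Type I chains have 4 array probes each, and the 3 tested probes of Col1a1 gave differences of -0.18, -0.19 and -0.52. The first pair, A_52_P525107 and A_55_P2118520, lie at chr11:94813075-94813134 and chr11:94813115-94813174 on the plus strand of mm9, share part of their target, and were each printed in 10 spots. The spots of one probe on one array varied with an SD between 0.07 and 0.28, smaller than the SD of 0.76 among the young arrays on the first probe. All 3 probes ranked young replicate 2 above young replicates 1 and 4.

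**Figure D2:**
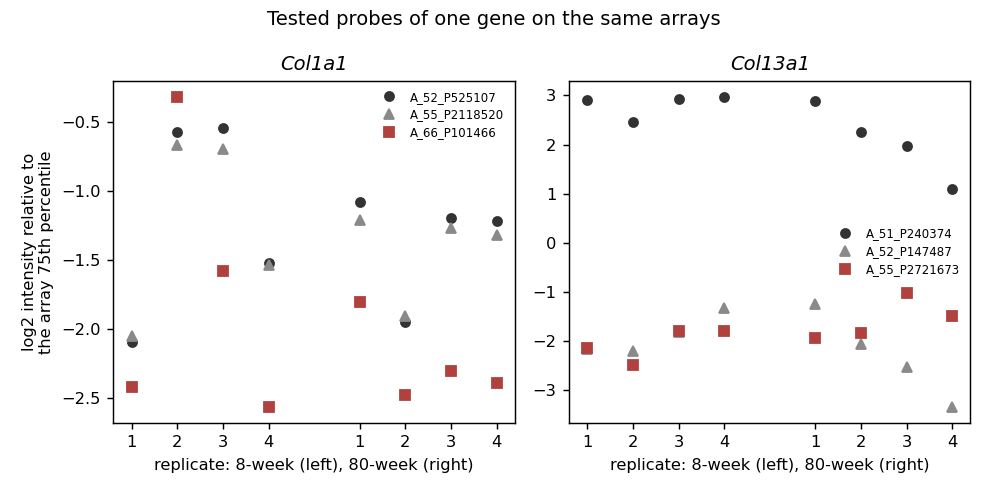
Log2 intensity relative to the array's 75th percentile (y axis) of each tested probe of Col1a1 (left) and Col13a1 (right) on the young (8-week) and old (80-week) replicates (x axis), with one symbol per probe. The 2 overlapping Col1a1 probes move together from array to array, whereas the red Col13a1 probe does not share the low old replicate 4 of the other 2 probes.

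Of the other 3 tested fibrillar chains, Col5a3 and Col27a1 separated by age and Col5a1 did not. Col5a1, a type V chain that nucleates type I fibrils and sets their diameter, read -0.28, 0.20, 0.34 and 0.22 on the young arrays and 0.54, 0.30, 0.47 and -0.02 on the old ones. The groups overlapped and the difference was 0.20 (SE 0.21, limma adjusted p = 0.665), or 0.046 without young replicates 1 and 2. Its partner chain Col5a2 was above background on 1 of the 8 arrays and was not tested.

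Col5a3, a further type V chain, read 1.15, -0.69, 0.71 and 1.31 on the young arrays and 1.78, 2.17, 1.82 and 1.85 on the old ones. Every old array was above every young array, young replicate 2 was the lowest, and the old arrays lay close together (SD 0.18). The old livers were 2.44-fold higher, a difference of 1.28 (SE 0.40, limma adjusted p = 0.259), 0.90 without young replicates 1 and 2 and 0.85 without young replicate 2 alone. Col27a1, a fibrillar chain best known from cartilage, read -2.86, -3.51, -3.44 and -2.71 on the young arrays and -1.29, -2.12, -2.01 and -2.26 on the old ones. Again no old array fell among the young ones, and old replicate 1 was the highest. The difference was 1.21 (SE 0.28, limma adjusted p = 0.141), and 1.15 with young replicates 1 and 2 left out. The probe was dim, above background on 3 young and 4 old arrays, and with the normexp background correction, which adds 50 intensity units to every spot, the difference was 0.50. The other Col27a1 probe, above background on 1 young and 1 old array, was not tested, and its means differed by 0.17.

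Of the 44 collagens, 35 had a promoter entry on mouse assembly GRCm38.p6, a later build than the mm9 of the probes. Start sites are those of the promoter entries, and RefSeq gave only the gene edges. The 250 bases before the start site were searched on both strands for TATAAA (the TATA box), CCAAT (the CCAAT box) and GGGCGG (the GC box, which binds Sp1), each counted on its own. Among 32851 promoters of all genes these letters occurred in 12.4%, 33.8% and 32.7%, and among the 38 collagen promoters in 5, 13 and 22. The 3 promoters printed here belong to collagens whose age groups did not overlap, read 5′ to 3′ on the strand of the gene, with matches in capitals. They are not the full set of such genes. The Col27a1 promoter, with 1 GC box match, is not printed, and Col14a1 had no entry. That of Col5a3, at chr9:20815068-20815317 on the minus strand, held 1 CCAAT match and 2 GC box matches. The RefSeq gene edge lies 50 bases before the start site used, so the GC box match nearest the start falls inside the annotated gene.
Col5a3: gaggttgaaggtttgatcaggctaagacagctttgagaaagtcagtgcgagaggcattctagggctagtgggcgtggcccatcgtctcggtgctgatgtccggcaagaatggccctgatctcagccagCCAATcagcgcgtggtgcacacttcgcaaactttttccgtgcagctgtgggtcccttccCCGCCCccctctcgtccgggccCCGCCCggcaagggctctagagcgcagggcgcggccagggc

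The basement membrane collagens of type IV were lower in old livers in mean, without passing the test. Col4a1 and Col4a2, the alpha 1 and alpha 2 chains that form the type IV network found in nearly all basement membranes, sit head to head on chromosome 8 and are transcribed from neighbouring starts. Their promoter entries place the starts at the ends of a stretch of 22 bases, in capitals here. It lies within chr8:11312801-11312830 on the plus strand of GRCm38.p6. The RefSeq gene edge of Col4a1 lies 63 bases beyond that start, at 11312889, so the annotated genes overlap by more than the 22 bases. The transcripts run in opposite directions and cross there, so the 22 bases lie inside both, and the stretch is printed to show how closely the starts sit.
Col4a2 start to Col4a1 start: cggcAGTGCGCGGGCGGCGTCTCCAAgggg

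Col4a1 read 2.67, 2.88, 2.54 and 2.54 on the young arrays and 2.56, 2.67, 2.42 and 1.49 on the old ones. Old replicate 4 was the lowest, and old replicates 1 and 2 fell among the young arrays. The difference was -0.37 (SE 0.27, limma adjusted p = 0.527). Col4a2 read 1.65, 1.84, 1.21 and 1.17 on the young arrays and 1.48, 1.50, 0.48 and 0.18 on the old ones. Old replicates 3 and 4 were below every other array and old replicates 1 and 2 fell among the young ones, with a difference of -0.56 (SE 0.34, limma adjusted p = 0.455). Without young replicates 1 and 2 the differences of the pair were -0.26 and -0.28. Leaving out the single old replicate 4 gave -0.11 for Col4a1 and -0.31 for Col4a2.

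Col4a5, an X-linked type IV chain of specialised basement membranes such as that of the kidney glomerulus, read -3.04, -2.65, -2.18 and -2.45 on the young arrays and -3.88, -3.52, -3.27 and -3.36 on the old ones. Its probe, at chrX:138123547-138123606 on the plus strand of mm9, was above background on 4 young and 0 old arrays, so it met the filter only through the young group and its level in old livers is only bounded. Young livers were at least 1.39-fold higher, taking for each old array the higher of the probe's own value and the lowest value well above background. The fitted difference was -0.93 (SE 0.23, limma adjusted p = 0.169), and -1.20 without young replicates 1 and 2. Weighting the arrays by quality gave an adjusted p of 0.0294 in limma, the one alternative under which any collagen passed, but that test too sets young values against old ones that are not above background, and the normexp correction brought the difference to -0.22. The other Col4a5 probe was above background on none of the 8 arrays. The Col4a5 promoter at chrX:141475169-141475418, plus strand, held 1 CCAAT match and 1 GC box match. The RefSeq gene edge lies 49 bases before the start site used, so the GC box match falls inside the annotated gene.
Col4a5: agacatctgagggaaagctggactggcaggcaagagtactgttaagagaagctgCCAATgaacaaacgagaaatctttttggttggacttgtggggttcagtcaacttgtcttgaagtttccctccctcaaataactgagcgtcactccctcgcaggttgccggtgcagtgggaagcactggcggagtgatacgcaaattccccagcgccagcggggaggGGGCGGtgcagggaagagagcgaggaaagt

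The chains that pair with Col4a5 in such membranes, Col4a3, Col4a4 and Col4a6, were above background on no array. Col18a1, whose C-terminal fragment is endostatin, read 7.38, 6.60, 7.67 and 7.68 on the young arrays and 7.71, 7.57, 7.48 and 7.69 on the old ones. Young replicate 2 stood below the other 7 arrays, and the difference of 0.28 (SE 0.26, limma adjusted p = 0.622) became -0.06 without young replicates 1 and 2 and 0.035 without young replicate 2 alone. Col15a1, the related collagen that links basement membranes to fibrils, was above background on no array with either of its 2 probes.

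Type VI collagen, whose alpha 1, 2 and 3 chains assemble into one monomer, had positive differences in all 3 tested chains, again without passing the test. Col6a3, the long chain from which endotrophin is cleaved, had the largest difference of any tested collagen. It read -2.12, -1.01, -0.75 and -1.35 on the young arrays and 0.44, -0.34, 0.19 and -0.11 on the old ones. Every old array was above every young array, and young replicate 1 was the lowest. Old livers were 2.55-fold higher, a difference of 1.35 (SE 0.31, 95% interval 0.65 to 2.05, limma adjusted p = 0.139), and 1.10 with young replicates 1 and 2 left out. The probe, A_52_P479262, lies at chr1:92663663-92663722 on the minus strand of mm9, and the other 2 Col6a3 probes were above background on no array. The Col6a3 promoter, at chr1:90843972-90844221 on the minus strand, held none of the 3 motifs.
Col6a3: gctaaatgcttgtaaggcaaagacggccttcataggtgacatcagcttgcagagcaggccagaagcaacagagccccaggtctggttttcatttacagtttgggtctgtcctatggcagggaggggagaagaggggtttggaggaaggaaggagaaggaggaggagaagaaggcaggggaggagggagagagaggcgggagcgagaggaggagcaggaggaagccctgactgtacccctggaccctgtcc

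Col6a1 read 0.07, 0.45, 1.05 and 0.73 on the young arrays and 1.74, 0.85, 0.98 and 1.11 on the old ones. Old replicate 1 was the highest, old replicates 2 and 3 lay below young replicate 3, and the difference was 0.59 (SE 0.27, limma adjusted p = 0.368). Col6a2 was dim, above background on 2 young and 2 old arrays, and read -3.70, -3.51, -2.84 and -3.07 on the young arrays and -3.09, -3.10, -2.43 and -2.81 on the old ones. The groups overlapped and the difference was 0.42 (SE 0.25, limma adjusted p = 0.449). Without young replicates 1 and 2, Col6a1 and Col6a2 differed by 0.28 and 0.10. The remaining type VI chains, Col6a4, Col6a5 and Col6a6, were not tested.

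Among the other collagens, the 4 tested fibril-associated ones, which decorate the surface of fibrils, had positive differences. Col14a1, which limits the sideways growth of fibrils, read -2.15, -2.94, -1.81 and -1.64 on the young arrays and -0.96, -1.16, -1.42 and -1.43 on the old ones. The groups did not overlap, although young replicate 4 and old replicate 4 lay next to each other. The difference of 0.89 (SE 0.29, limma adjusted p = 0.279) was 0.48 without young replicates 1 and 2, the lowest of the 8 arrays. Col16a1, a fibril-associated chain, differed by 0.57 (SE 0.24, limma adjusted p = 0.338), or 0.37 without those arrays, and its groups overlapped by one old array. Col20a1 and Col9a2, also of that subfamily, differed by 0.37 and 0.28, with adjusted p of 0.458 and 0.518 in limma, and by 0.23 and 0.12 without those arrays. The fibril-associated Col12a1, Col19a1 and Col22a1 were not tested.

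Col8a1 and Col13a1 had the most negative differences of the 12 other collagens tested. Col8a1, a short-chain collagen of vascular walls, read -1.01, 0.20, -1.39 and -1.90 on the young arrays and -1.55, -2.20, -2.66 and -2.09 on the old ones. Young replicate 2 was the highest, and old replicate 1 fell among the young arrays. Young livers were 2.15-fold higher in mean, a difference of -1.10 (SE 0.43, limma adjusted p = 0.321), which was -0.48 without young replicates 1 and 2 and -0.69 without young replicate 2 alone. Col13a1, a transmembrane collagen of cell junctions, read 2.90, 2.46, 2.93 and 2.98 on the young arrays and 2.89, 2.25, 1.97 and 1.10 on the old ones. Old replicate 1 fell among the young arrays and old replicate 4 was the lowest. The difference was -0.76 (SE 0.35, limma adjusted p = 0.362), but the 3 tested probes of the gene disagreed, at -0.76, -0.42 and 0.48. Without old replicate 4 it was -0.45.

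The other tested members had smaller differences. Col7a1, which forms anchoring fibrils beneath epithelia, differed by -0.43 with an adjusted p of 0.562 in limma, by -0.82 without young replicates 1 and 2, and by -0.68 to -0.22 without 1 array. Col17a1, a transmembrane collagen of hemidesmosomes, differed by 0.10, and by -0.20 without young replicates 1 and 2. Col26a1 differed by 0.39 and was above background on 1 young and 3 old arrays. That difference was 0.051 without young replicates 1 and 2 and 0.18 (without old replicate 1) to 0.61 (without old replicate 4) when 1 array was left out.

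**Figure D3:**
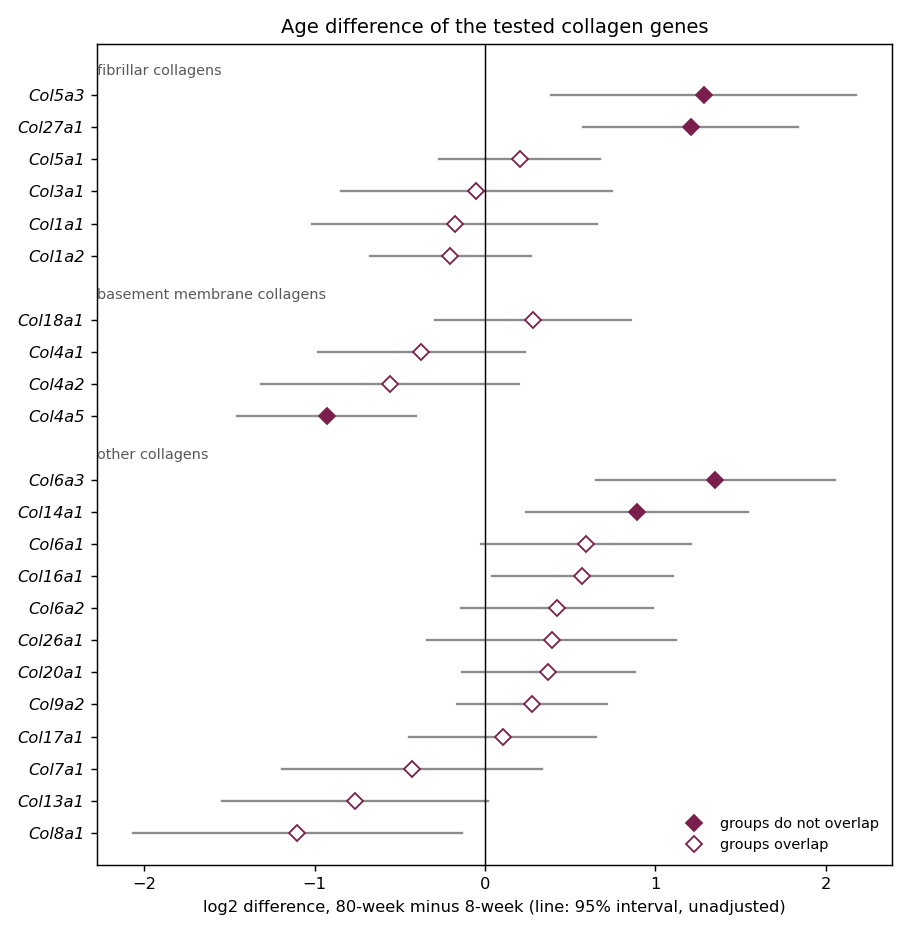
Log2 difference, old (80-week) minus young (8-week) livers (x axis), of the 22 tested collagen genes (y axis, by class, ordered by difference). Diamonds are the fitted differences, filled where the 4 young and 4 old arrays do not overlap, and lines are 95% intervals without adjustment. Col6a3 at 1.35 and Col8a1 at -1.10 are the extremes.

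Another 22 collagens were not tested. Of these, 16 were above background on none of the 8 arrays with any probe, and 6 on at least 1 array. The 16 include the cartilage collagens Col2a1, Col10a1 and Col9a3. Col11a1, another cartilage chain, had a probe above background on 1 array only. On old replicate 1 that probe read -0.37 against -6.07 to -3.13 on the other 7, and a Col6a4 probe read -0.31 there against -6.11 to -5.18.

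The class medians differed in sign. The median difference was 0.08 over 6 fibrillar genes, -0.47 over 4 basement membrane genes and 0.38 over 12 others, beside 0.02 over all tested genes. Over type IV alone it was -0.56 (3 of 3 negative) and over type VI 0.59 (3 of 3 positive). The type IV and basement membrane medians include Col4a5, which met the filter only through the young group. To follow a class by array, each gene was centred on its mean over the 8 arrays and the genes of the class were averaged. The basement membrane class lay between 0.14 and 0.29 on the young arrays and between -0.52 and 0.03 on the old ones, with old replicate 4 the lowest. These class values include Col4a5, whose old values were not above background. The age groups of Col4a1, Col4a2 and Col18a1 each overlapped, so the separation of the class is not read as a result. The fibrillar class lay between -0.39 and -0.06 on the young arrays and between -0.03 and 0.39 on the old ones. Within it Col5a3 and Col27a1 differed by 1.28 and 1.21 and the other 4 members by between -0.20 and 0.20. The other collagens overlapped. Without young replicates 1 and 2 the class medians were -0.27 for basement membrane and 0.11 for the others. The fibrillar median was 0.26 without young replicate 2 and -0.055 without young replicate 1, and the basement membrane median was -0.21 without old replicate 4. With no filter on dim probes, over all 8 basement membrane genes, that median was 0.17, beside 0.19 over all genes. The number of members is small, and these medians are a description with no test.

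**Figure D4:**
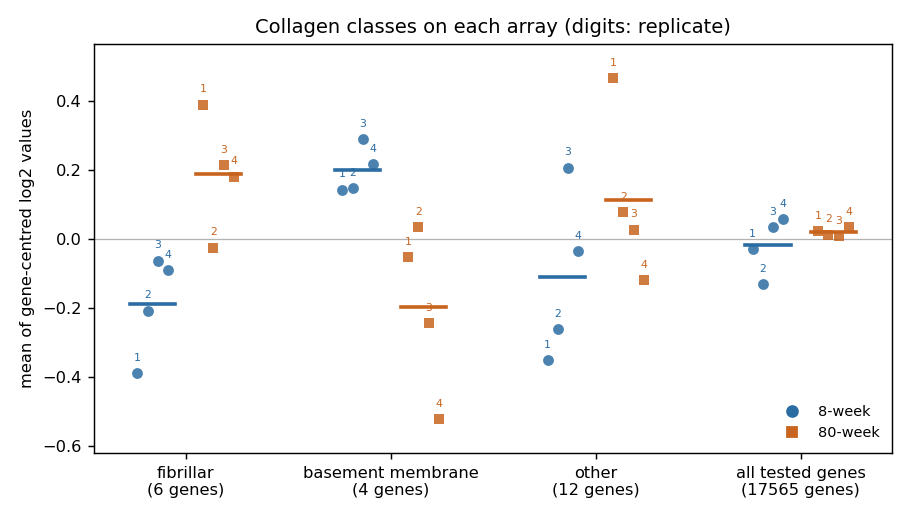
Mean of gene-centred log2 values (y axis) of the fibrillar, basement membrane and other collagens and of all tested genes (x axis) on each young (8-week, circles) and old (80-week, squares) array, with replicate numbers as digits and lines at group means. The basement membrane class sits at 0.14 to 0.29 on young arrays and at -0.52 to 0.03 on old ones. It includes Col4a5, which was above background on 4 young and 0 old arrays.

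The enzymes and partners that make collagen were read from lists. Over all tested genes 0.359% passed, 14.1% had an unadjusted p under 0.05 in limma and 52% were positive, and the shares in the lists stand beside these. Propeptide processing, the removal of the ends of procollagen, had 6 tested genes, of which 0 passed (3 higher and 0 lower, or 50%, at an unadjusted p under 0.05 in limma), 5 were positive and the median was 0.59. Pcolce, the enhancer of the C-proteinase, read 0.95, 1.11, 1.00 and 1.24 on the young arrays and 2.26, 1.80, 1.88 and 1.89 on the old ones. No old array overlapped a young one, the difference was 0.88 (SE 0.18, limma adjusted p = 0.0985), it was 0.83 without young replicates 1 and 2, and its adjusted p in limma was 0.0362 with array weights. Adamts14, an N-proteinase, and Pcolce2 differed by 0.98 and 0.90, with adjusted p of 0.291 and 0.306 in limma, and by 0.70 and 1.39 without young replicates 1 and 2.

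Hydroxylases and glycosyltransferases, which modify the chains before they fold, had 13 tested genes, 0 past the threshold (2 higher and 1 lower, or 23.1%, at an unadjusted p under 0.05 in limma), 9 negative and a median of -0.04. P4ha1, a catalytic subunit of prolyl 4-hydroxylase, read -0.17, 0.13, -1.38 and -1.62 on the young arrays and -2.17, -1.96, -2.12 and -2.03 on the old ones. Young replicates 1 and 2 were the highest, and the difference of -1.31 (SE 0.38, limma adjusted p = 0.231) was -0.57 without them. The prolyl 3-hydroxylases differed in sign, with 0.88 for P3h3, 0.45 for P3h2 and -0.28 for P3h1, and P3h3 was 0.49 without young replicates 1 and 2. Chaperones and secretion factors had 12 tested genes, 0 past the threshold (0 higher and 0 lower at an unadjusted p under 0.05 in limma) and a median of 0.01, from -0.86 for the secretory regulator Creb3l2 to 0.49 for the cargo receptor Mia2, with 0.37 for the coat protein Sec24d, and these were -0.14, 0.21 and 0.16 without young replicates 1 and 2. Crosslinking enzymes had 5 tested genes, 0 past the threshold (0 higher and 0 lower at an unadjusted p under 0.05 in limma) and a median of -0.26, with -0.995 for Lox, -0.26 for Loxl2 and 0.35 for Tgm2, of which Loxl2 turned to 0.023 without young replicates 1 and 2.

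Proteins that bind fibrils and basement membranes were split. Of 17 tested proteoglycans and glycoproteins of fibrils, 0 passed (4 higher and 1 lower, or 29.4%, at an unadjusted p under 0.05 in limma), 12 were positive and the median was 0.18. Efemp1, a fibulin of elastic fibres, read 1.20, 1.47, 1.86 and 1.94 on the young arrays and 3.27, 2.69, 2.66 and 2.89 on the old ones. The groups did not overlap, the difference was 1.26 (SE 0.23, limma adjusted p = 0.0689), and it passed in 2 of 23 alternatives. Podn, a small leucine-rich proteoglycan, and Tnxb, a tenascin that spaces fibrils, differed by 1.06 and 1.05, whereas Fbln1, another fibulin, differed by -1.42. Their adjusted p in limma ran from 0.203 to 0.293. With young replicates 1 and 2 left out, Efemp1, Podn, Tnxb and Fbln1 differed by 0.98, 0.81, 0.83 and -1.20.

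Of 16 tested basement membrane partners of type IV collagen, 0 passed (3 higher and 1 lower, or 25%, at an unadjusted p under 0.05 in limma), 8 were positive and the median was -0.01. Lama1, a laminin alpha chain, read -0.79, -2.03, -0.43 and -0.34 on the young arrays and 1.46, 0.59, 1.05 and 0.74 on the old ones. The groups did not overlap and the difference was 1.86 (SE 0.38, limma adjusted p = 0.0985, or 0.0293 with array weights). Lamb3 and Lamb1, laminin beta chains, differed by 1.98 and 0.53, with adjusted p of 0.12 and 0.34 in limma. With young replicates 1 and 2 left out, Lama1, Lamb3 and Lamb1 differed by 1.35, 1.42 and 0.82. Nid1, the linker between laminin and type IV collagen, read 4.09, 4.70, 2.30 and 2.36 on the young arrays and 2.23, 2.35, 1.28 and 1.34 on the old ones. Young replicates 1 and 2 were the highest, and the difference of -1.56 (SE 0.56, limma adjusted p = 0.302) was -0.53 without them.

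Signals that induce collagen transcription had 16 tested genes, 0 past the threshold (0 higher and 3 lower, or 18.8%, at an unadjusted p under 0.05 in limma), 13 negative and a median of -0.54. Smad3, which carries the TGF-beta signal to collagen genes, read 4.36, 3.46, 1.58 and 1.79 on the young arrays and 0.48, 1.51, 0.53 and 1.15 on the old ones. Young replicates 1 and 2 were again the highest, and the difference of -1.88 (SE 0.59, limma adjusted p = 0.263) was -0.77 without them. The ligand Tgfb2, the receptor Tgfbr1 and the inhibitor Smad7 differed by -1.36, -0.69 and -0.61, and by -0.96, -0.35 and -0.21 without those arrays. The list of collagen receptors and uptake genes had 11 tested genes and a median of -0.13. Of these 0 passed (0 higher and 0 lower at an unadjusted p under 0.05 in limma). Cd93, whose binding to collagen was not examined here, differed by -0.77 and the collagen receptor kinase Ddr1 by -0.40. Without young replicates 1 and 2 they differed by -0.41 and 0.13.

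Among 25 tested proteins with a collagen-like domain that are not collagens, 1 passed (beside 0.359% of all tested genes), 4 were higher and 1 lower at an unadjusted p under 0.05 in limma (20% beside 14.1%), 18 were positive (72% beside 52%) and the median was 0.27. Scara5, a ferritin receptor, read -5.45, -4.77, -3.18 and -3.26 on the young arrays and -0.28, 0.01, -1.70 and -0.26 on the old ones. It was above background on 0 young and 4 old arrays, so it met the filter only through the old group, and its test uses young values that are not above background. Old livers were at least 6.65-fold higher (limma adjusted p = 0.0338). It passed in 13 of 22 alternatives. With the normexp correction the fitted difference of 3.61 became 1.50 with 75th percentile scaling and 1.45 with quantile scaling, with adjusted p of 0.0643 and 0.0526 in limma. After the omission of any 1 of young replicates 1 and 2 and old replicates 1, 2 and 4, the adjusted p of Scara5 in limma was between 0.0792 and 0.132, and with both of those young arrays left out it was 0.201. Colec11, a collectin, and C1qtnf2, of the C1q and TNF family, differed by 1.17 and 1.25, and by 0.39 and 0.41 without young replicates 1 and 2.

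**Figure D5:**
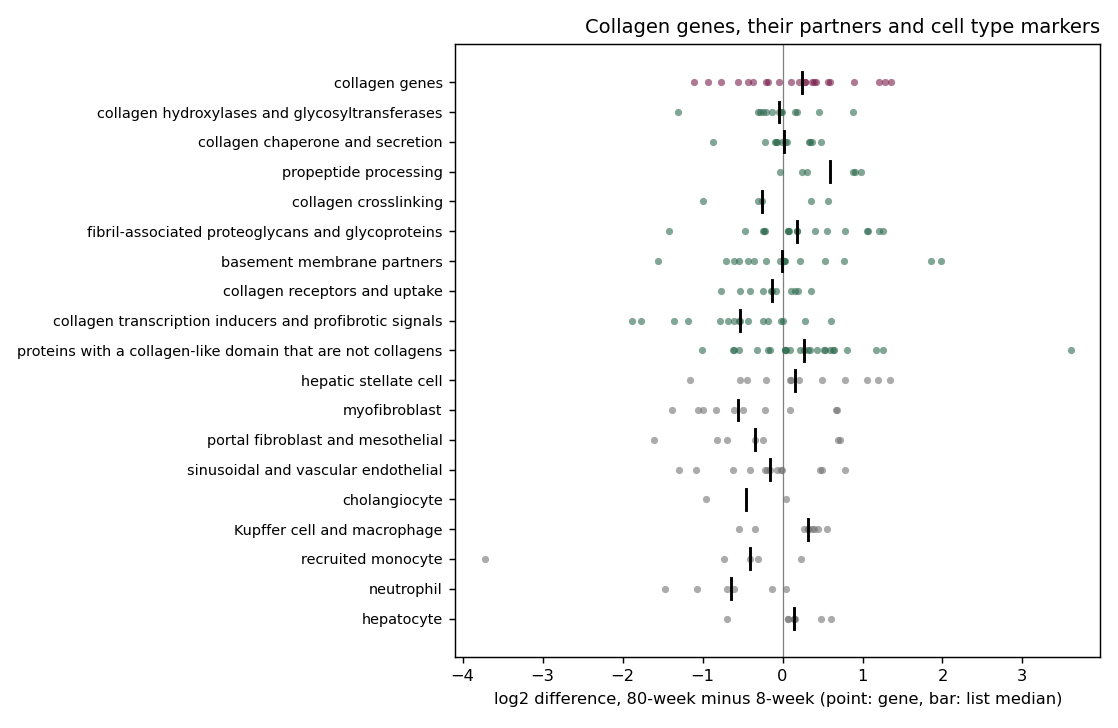
Log2 difference, old (80-week) minus young (8-week) livers (x axis), of each tested gene in the collagens, 9 lists of collagen partners and 9 lists of cell type markers (y axis), with black bars at the list medians. The collagens span -1.10 to 1.35, and Scara5 at 3.61 is the point farthest to the right.

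Markers of the cells that make collagen stood beside these values as follows. Of 12 tested hepatic stellate cell markers, 0 passed (3 higher and 1 lower, or 33.3%, at an unadjusted p under 0.05 in limma), 8 were positive, the median was 0.15, and their summed level ran from 83.3 to 137 times the 75th percentile intensity on young arrays and from 119 to 176 on old ones. Lrat, which stores retinyl esters in these cells, and Reln differed by 1.34 and 1.05, with adjusted p of 0.207 and 0.135 in limma. For Lrat the adjusted p in limma was 0.0331 with array weights and 0.0498 without young replicate 1. Other markers of the list went the other way, with 4 of the 12 negative and the lowest difference at -1.16. Gfap was above background on no array. Of 10 tested myofibroblast markers, 0 passed (0 higher and 1 lower, or 10%, at an unadjusted p under 0.05 in limma), 7 were negative and the median was -0.55. Myl9 and Tagln differed by -1.06 and -0.84 (-0.45 and -0.43 without young replicates 1 and 2), whereas 3 of the 10 were positive, the highest at 0.69. The summed level of the list ran from 55.2 to 113 on young arrays and from 37.8 to 75.7 on old ones. Of 13 tested endothelial markers, 0 passed (0 higher and 3 lower, or 23.1%, at an unadjusted p under 0.05 in limma), 10 were negative and the median was -0.16, and the summed level ran from 84.6 to 128 on young arrays and from 80.5 to 132 on old ones. Within that list Gpr182, Lyve1 and Pecam1 differed by -1.29, -1.09 and -0.62, against 0.47 for Stab2, and by -0.75, -0.96 and -0.67 against 0.23 without young replicates 1 and 2.

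The remaining marker lists had 0 genes past the threshold. At an unadjusted p under 0.05 limma gave 1 higher and 1 lower portal gene (28.6%) and 1 lower monocyte gene (20%), beside 14.1% of all tested genes. The monocyte differences ran from -3.73 to 0.23. The medians of these lists were -0.35 over 7 portal fibroblast and mesothelial genes (summed level 3.16 to 6.29 young, 3.26 to 5.68 old), -0.46 over 2 cholangiocyte genes, 0.32 over 9 macrophage genes, -0.41 over 5 monocyte genes, -0.65 over 6 neutrophil genes and 0.15 over 8 hepatocyte genes. The part of any cell type in the collagen values was not tested.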

How the data were processed

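Spot intensity values in the scanner files are the authors' deposited output of Feature Extraction 10.7.3.1, which had subtracted background, per the file headers. The submitters' processing notes give version 9.1 of Agilent Feature Extraction. The authors also deposited a table of intensity values. Over 56605 non-control probes, 100% of its entries lay within 1% of the processed signal, its column medians were 17.4 to 34.9, and it therefore held no scaling between arrays. It served as an alternative and held 0 columns of other samples. For the values used here, log2 was taken of the processed signal, outlier spots were dropped, replicate spots were averaged, and the 75th percentile of each array was subtracted. The number of arrays limits the precision. No spot was saturated. Folds given as bounds ("at least") cover dim signal but not sampling error.

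Groups were compared over 17565 genes with limma 3.58.1 in R 4.3.3 (lmFit, eBayes) and Benjamini-Hochberg adjustment, after a check on simulated data. Figures used Python 3 and matplotlib. All 44 collagen symbols matched the RefSeq table. The collagen classes, the lists of partners and the cell type markers were chosen with earlier results of these data known, so their directions are no independent evidence. Every collagen could be named, and from each list genes past the threshold and up to 4 with the smallest p. That rule gave 70 list genes, of which 38 are named. Same-numbered replicates did not share their deviations from the group means in every pair (correlations 0.03, 0.14, 0.11 and 0.10), so they were not treated as pairs. Alternatives covered background correction, scaling, filters, probe choice, variance prior, array weights, blocks and omitted arrays.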

Additional observations from a re-analysis of the deposited data

Results flagged for a closer look

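In 8 of 120 groups of 4 arrays examined for the named genes, or 6.67%, a single array lay far from the other 3 of its group by Dixon's test. Chance gives about 5%. Among the collagens, Col3a1 read 0.82 on young replicate 2 against -0.61 to -0.49 on the other young arrays, Col13a1 read 2.46 on young replicate 2 against 2.90 to 2.98, and Col1a1 read -1.95 on old replicate 2 against -1.22 to -1.09. Among the partners and markers, Podn read -1.89 on young replicate 2 against -1.02 to -0.91, Lrat read -0.91 on young replicate 1 against -2.54 to -2.35, and Pecam1 read -0.48 on young replicate 4 against -0.69 to -0.67. Scara5 read -1.70 on old replicate 3 against -0.28 to 0.01, and Stab2 read 4.79 on old replicate 1 against 4.20 to 4.28.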

How the results depend on the processing

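No collagen passed the threshold in limma under any alternative but array weights, where 1 lower gene, Col4a5, did. The old values of Col4a5 were not above background, and it met the filter only through the young group. Col6a3, Col5a3, Col27a1, Col14a1, Col4a5 and Col8a1 kept their sign in all alternatives that gave them a value. The 5 collagens without overlap became 3 with normexp and the 75th percentile and 3 among genes above background on all 8 arrays, 5 to 9 without 1 array, and 8 without young replicates 1 and 2. The basement membrane median was 0.17 with no filter on dim probes, where the median of all genes was 0.19, -0.63 to -0.21 without 1 array (highest without old replicate 4) and -0.27 without young replicates 1 and 2. The fibrillar median was -0.055 to 0.26 without 1 array (highest without young replicate 2), and that of the other collagens 0.27 to 0.45 without 1 array and 0.11 without young replicates 1 and 2.

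Some differences changed sign. Col17a1 was -0.0014 with median scaling, which lowers the median of all genes from 0.02 to -0.09, -0.16 with array weights, -0.0074 to 0.33 without 1 array and -0.20 without young replicates 1 and 2. Col18a1 was -0.025 with array weights and, with young replicates 1 and 2 left out, -0.062. Col1a1 was -0.48 to 0.035 without 1 array. Col3a1 was 0.20 with array weights, -0.19 to 0.30 without 1 array and 0.28 without young replicates 1 and 2. Col13a1 was 0.48 through the probe A_55_P2721673. Without young replicates 1 and 2, Ddr1 was 0.13 and Loxl2 was 0.023. The cause of these changes was not tested.

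Over all genes, 58 were higher and 5 lower. Lower genes numbered 8 with quantile scaling, 13 with median scaling, 8 with no filter, 9 with the mean of a gene's probes and 8 with a trended and robust prior. Above background on all 8 arrays gave 20 higher and 1 lower, on at least 3 arrays of either group 93 and 9, array weights 136 and 36, and the omission of young replicates 1 and 2 12 and 2. Without 1 array there were 25 to 69 higher (25 without young replicate 1) and 2 to 14 lower. With the replicate number as a block, 17 genes were lower, no collagen passed (lowest adjusted p 0.101, Col4a5), Scara5 had an adjusted p of 0.0896, and the numbers are not known to pair the samples. For 22 collagens the signal over background, not the number of arrays, kept them out of the test.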
